A study of Mus musculus with 9 samples.

Results

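Primary mouse microglia driven to opposite activation states, by LPS with IFNγ or by IL-4, were compared directly on expression arrays. The comparison took 6 of the 9 arrays of the series, chosen by their titles: 3 from cells given LPS with IFNγ at 20 ng/ml for 16 h and 3 from cells given IL-4 at 100 U/ml for 48 h. The LPS dose was listed as 100 with an incompletely written unit. The other 3 arrays came from unstimulated microglia and entered the estimate of the spread. All groups were cortical microglia of C57BL/6J mice, taken at 1 to 5 days of age and of CB2+/+ genotype, that is, with the cannabinoid receptor intact. Stimulus and treatment time differed together, so that the effect of IL-4 and that of the longer exposure cannot be told apart. The labels do not say whether replicates were separate cultures, so the p-values reflect how far these arrays scatter, which may be technical scatter alone.

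Microglia are the resident macrophages of the brain. LPS, a component of the bacterial outer membrane, is sensed by TLR4 and activates NF-kB, and IFNγ induces interferon-response genes and antigen presentation; the pair is the standard stimulus for classical, pro-inflammatory activation. IL-4 acts through its receptor and STAT6 and induces the alternative state, marked in mouse by Arg1, Retnla, Chil3 and Mrc1.

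The LPS+IFNγ array of replicate 2 stood apart before any result. Its mean intensity was 112, against 310.9 to 378.5 on the other 8 arrays, and 6208 of its probes were detected (detection p under 0.05), against 14475 to 16435. Across probes it correlated with its own group at 0.755 to 0.759, where LPS+IFNγ replicates 1 and 3 correlated at 0.980. Results are therefore given with and without this array. The IL-4 array of replicate 1 also differed from its group, with correlations of 0.952 and 0.957, against 0.985 between IL-4 replicates 2 and 3. Its interferon-stimulated antiviral genes averaged 9.75 on the log2 scale, against 7.17 and 7.83 on the other IL-4 arrays. The part of these arrays in any single result was not tested beyond the values without them.

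All 12 measured microglia and macrophage markers were detected on every IL-4 and unstimulated array, while 11, 7 and 10 were detected on the LPS+IFNγ arrays. Few markers of other brain cells were measured at all. Their list means per array were 5.16, 5.20 and 5.15 in LPS+IFNγ cells, 6.47, 4.63 and 4.92 in IL-4 cells and 5.35, 4.61 and 5.34 in unstimulated cells for 5 astrocyte genes (log2). For 3 endothelial, mural and fibroblast genes they were 7.89, 7.24 and 7.40 in LPS+IFNγ cells, 10.89, 8.18 and 8.999 in IL-4 cells and 8.11, 7.26 and 7.37 in unstimulated cells. For 6 border macrophage genes they were 7.10, 7.33 and 7.02 in LPS+IFNγ cells, 10.32, 8.37 and 8.92 in IL-4 cells and 9.48, 8.13 and 9.09 in unstimulated cells. IL-4 replicate 1 was the highest IL-4 array for each of these lists. Among all marker genes of other cells, the calls were Mag (oligodendrocyte lineage) and S100a8 (neutrophil) higher and Rbfox3 (neuron), Flt1 (endothelial) and Mrc1 (border macrophage) lower, all but Mrc1 named after their values were seen. Mag lost its call without IL-4 replicate 2 or 3 or LPS+IFNγ replicate 1 (adjusted p up to 0.1) and Rbfox3 in 6 of 9 fits with 1 array left out, that is, in all but the fits without LPS+IFNγ replicate 1, LPS+IFNγ replicate 2 and unstimulated replicate 2 (adjusted p up to 0.102). The neuron markers measured (2) were detected on no LPS+IFNγ array. The part of other cells in the results was not tested.

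Of 9391 measured genes, 530 rose in LPS+IFNγ relative to IL-4 microglia and 1081 fell at an adjusted p of 0.05 (limma with Benjamini-Hochberg adjustment over 16895 probes), which is 5.64% and 11.5% of the genes. By probe, 811 rose (4.8%) and 1630 fell (9.65%). In each of the 1611 called genes the 3 LPS+IFNγ arrays all lay beyond the 3 IL-4 arrays, a separation that 12.6% of all measured genes showed upward and 26.8% downward. The differences were large: 131 genes rose and 140 fell by over 3 on the log2 scale, while the median over all genes was -0.25. Without LPS+IFNγ replicate 2, 1213 genes rose (12.9%) and 1822 fell (19.4%), among them all 530 and all 1081 of the full comparison, and the median over all genes was -0.08. With the slide as a block, 455 rose (4.85%) and 891 fell (9.49%), of which 451 and 886 were shared. Without IL-4 replicate 1 the counts were 514 (5.47%) and 842 (8.97%). Counts within lists are to be set beside the share of all genes in the same fit.

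Many falls were of genes that some or all LPS+IFNγ arrays did not detect. Of the 1081 genes called lower, 209 were detected on no LPS+IFNγ array, and another 448 were detected on replicates 1 and 3 but not on replicate 2. When every undetected value was raised to the lowest detected signal of its array, 665 genes rose and 559 fell, and the median over all genes was 0.30. When arrays were centred on their medians instead of quantile-normalized, 30 rose and 843 fell around a median of -1.07, and without LPS+IFNγ replicate 2 this centring gave 794 and 2248 around -0.28. Log2 differences below are from the quantile-normalized fit, each with its SE. Where a gene was detected on no array of the lower group, a bound (at least so many fold) stands in place of the difference. Such bounds hold on the background-corrected scale and include no sampling error. Without background correction, differences of the called genes were a median 0.624 of the main ones, so that folds would be smaller there.

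**Figure D1:**
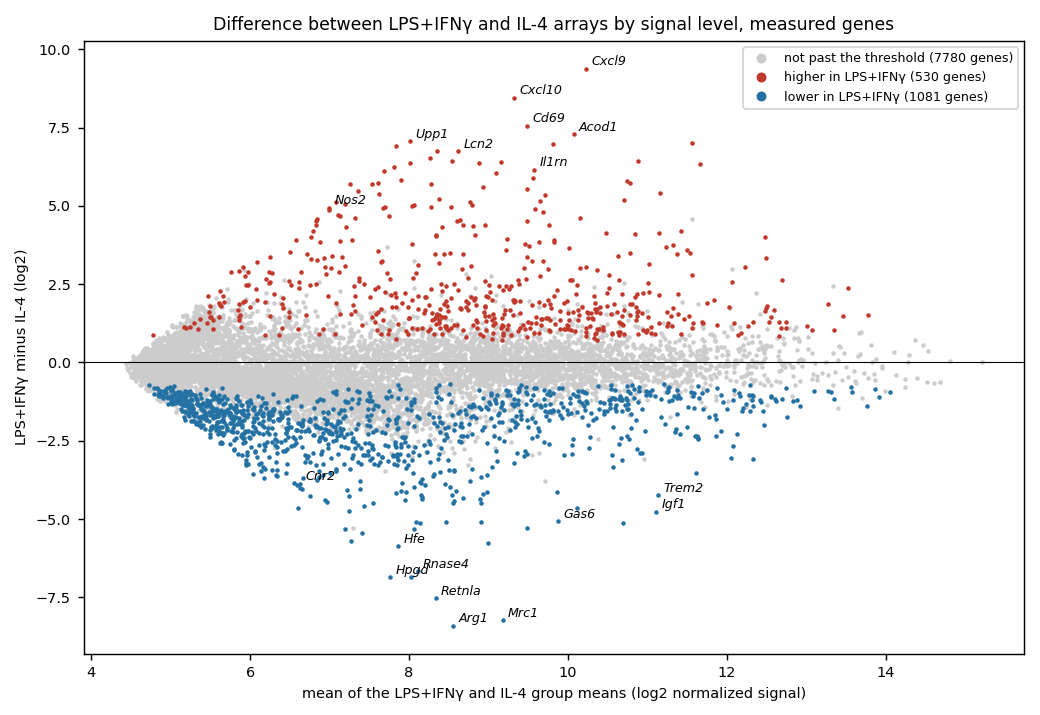
Log2 difference between LPS+IFNγ and IL-4 microglia (vertical axis) against the mean of both group means (horizontal axis, log2 normalized signal), 1 point per measured gene, with calls at adjusted p 0.05 in colour. Cxcl9 lies at 9.38 and Mrc1 at -8.23. Genes that an entire group did not detect, such as Arg1, are drawn at their fitted difference, in whose place the text gives a bound. The 530 rises and 1081 falls lie on either side of a grey band of genes not past the threshold.

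The enzymes that compete for arginine went opposite ways. Nos2, the inducible nitric oxide synthase, had signals of 9.86, 9.98 and 8.55 on the 3 LPS+IFNγ arrays, 4.59, 4.44 and 4.53 on the IL-4 arrays and 4.44, 4.56 and 4.30 on the unstimulated arrays (log2). It was detected on all LPS+IFNγ arrays and on no IL-4 array, and was at least 25.9-fold higher (adjusted p = 1.42e-04). Arg1, the arginase that turns arginine into ornithine and urea, had signals of 4.45, 4.25 and 4.36 in LPS+IFNγ cells, 12.54, 12.38 and 13.36 in IL-4 cells and 4.42, 4.19 and 7.48 in unstimulated cells. It was detected on every IL-4 array and on no LPS+IFNγ array, which puts it at least 126-fold lower (adjusted p = 4.04e-04); without the weak array, whose detection floor is high, the bound was 250.4-fold. Of 15 measured genes of arginine, nitric oxide and polyamine metabolism 4 rose and 5 fell, beside 5.64% and 11.5% of all genes. The other rises were Ass1, which regenerates arginine from citrulline (4.97 ± 0.60), the transporter Slc7a2 (2.75 ± 0.46) and Gch1, the entry enzyme to the nitric oxide synthase cofactor tetrahydrobiopterin (2.17 ± 0.37). Spr and Qdpr, which complete and recycle that cofactor, fell (-1.77 ± 0.34 and -2.48 ± 0.54), as did the spermidine synthase Srm (-1.84 ± 0.50) and Ddah2, which was detected on no LPS+IFNγ array and has no usable bound. Gch1, Spr, Qdpr, Srm and Ddah2 are named after their values were seen. The call of Qdpr was lost without IL-4 replicate 2 or 3 (adjusted p up to 0.0688). The call of Srm was lost in 6 of 9 fits with 1 array left out, that is, in all but the fits without LPS+IFNγ replicate 1, LPS+IFNγ replicate 2 and LPS+IFNγ replicate 3 (adjusted p up to 0.139). The call of Ddah2 was lost without IL-4 replicate 2 or 3 or LPS+IFNγ replicate 1 (adjusted p up to 0.0911).

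**Figure D2:**
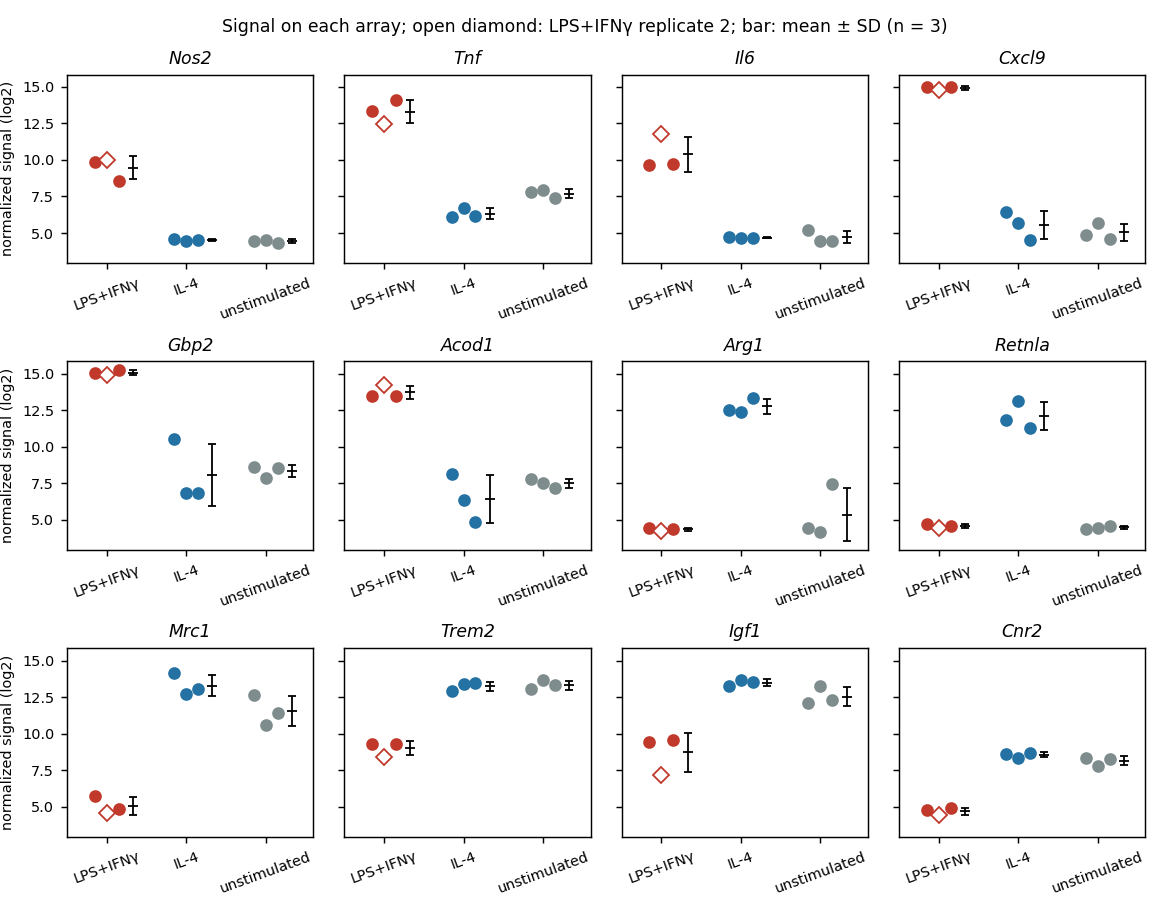
Normalized log2 signal of 12 genes on each array, with LPS+IFNγ arrays on the left, IL-4 arrays in the middle and unstimulated arrays on the right; bars are the mean and SD of 3 arrays, and the open diamond is the weak LPS+IFNγ replicate 2. The top 6 genes sit higher on every LPS+IFNγ array than on every IL-4 array, and Arg1, Retnla, Mrc1, Trem2, Igf1 and Cnr2 sit lower.

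Promoters with a match to a motif of the factors downstream of each stimulus are shown, from genes of either pole. They were picked for these matches among 6 windows searched. Each is the RefSeq window of 250 bases before to 50 after the annotated start (build GRCm38.p6), 5′ to 3′ on the gene's strand, with capitals on the matches found on either strand. The motifs searched were an interferon-response motif (GAAA and GAAA with any 2 bases between), an NF-kB motif (GGGA and CC with any 4 bases between), a gamma-activated motif (TTC and GAA with any 3 between) and a STAT6 motif (TTC and GAA with any 4 between).
Gbp2, chr3:142620413-142620712, plus strand: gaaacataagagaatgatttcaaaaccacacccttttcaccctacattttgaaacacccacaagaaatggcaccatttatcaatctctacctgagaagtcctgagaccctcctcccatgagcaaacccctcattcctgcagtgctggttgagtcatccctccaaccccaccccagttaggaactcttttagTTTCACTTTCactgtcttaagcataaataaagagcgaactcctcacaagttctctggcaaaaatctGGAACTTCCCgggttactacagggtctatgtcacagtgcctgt
Cxcl10, chr5:92348840-92349139, minus strand: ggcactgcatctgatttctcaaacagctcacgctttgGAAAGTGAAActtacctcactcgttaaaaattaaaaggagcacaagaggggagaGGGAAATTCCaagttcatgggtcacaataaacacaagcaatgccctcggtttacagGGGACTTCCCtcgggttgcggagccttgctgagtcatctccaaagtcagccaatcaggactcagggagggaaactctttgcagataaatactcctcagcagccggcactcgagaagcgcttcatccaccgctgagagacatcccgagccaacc
Retnla, chr16:48842359-48842658, plus strand: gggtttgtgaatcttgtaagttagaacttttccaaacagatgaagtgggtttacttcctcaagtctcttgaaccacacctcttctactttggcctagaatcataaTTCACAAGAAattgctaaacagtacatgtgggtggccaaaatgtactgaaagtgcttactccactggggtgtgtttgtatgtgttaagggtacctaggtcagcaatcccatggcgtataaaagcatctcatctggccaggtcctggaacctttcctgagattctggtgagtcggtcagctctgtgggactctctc
Gbp2, a guanylate-binding protein induced by IFNγ, held an interferon-response match starting at -59 and an NF-kB match at 8 from the start. Cxcl10, a chemokine for CXCR3-bearing T cells, held an interferon-response match at -213 and NF-kB matches at -159 and -103. Retnla, a secreted resistin-like protein of alternative activation, held a STAT6 match at -145. The 3 windows searched but not printed did not pair in this way: Cxcl9 held an NF-kB match at -130 and no interferon-response match, Tnf an NF-kB match at 30 as its single match, and Mrc1 an NF-kB match at -11 and no STAT6 match.

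Interferon-response matches stood in 7.99% of 551 windows of the genes that rose, in 2.04% of 1179 windows of the genes that fell and in 3.30% of 9836 windows of all measured genes. The other motifs differed less: gamma-activated matches were in 9.07%, 7.29% and 6.93%, STAT6 matches in 7.08%, 5.17% and 5.43%, and NF-kB matches in 29.6%, 27.1% and 26.0% of the same windows. Over all 32851 windows of the table the shares were 3.44% for the interferon-response, 8.30% for the gamma-activated, 6.95% for the STAT6 and 20.7% for the NF-kB motif. A gene can have several windows, and a match describes letters only.

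Most measured genes of the inflammatory cytokine list rose. The list also held genes that are not inflammatory cytokines, among them Il1rn and Edn1, which were counted with the rises. Of 15 measured genes of this list 11 rose and 0 fell, beside 5.64% and 11.5% of all genes. Their median difference was 2.64 on the log2 scale, against -0.25 over all genes. Without LPS+IFNγ replicate 2 the rises numbered 12, where 12.9% of all genes rose. Without IL-4 replicate 1 they numbered 11, where 5.47% of all genes rose. Tnf, the central early cytokine of the LPS response, had signals of 13.34, 12.48 and 14.07 in LPS+IFNγ, 6.07, 6.73 and 6.19 in IL-4 and 7.79, 7.93 and 7.38 in unstimulated cells, and rose by 6.97 ± 0.40 (adjusted p = 6.18e-05). Every LPS+IFNγ array thus lay above every other array. Il6, a driver of the acute-phase response, had signals of 9.66, 11.75 and 9.74 in LPS+IFNγ and 4.72, 4.69 and 4.67 in IL-4 cells, where no array detected it, and was at least 49.1-fold higher (adjusted p = 4.10e-04). Il1a rose by 5.71 ± 0.42 and Il1b by 3.34 ± 0.61; both encode ligands of the IL-1 receptor. Il27, an IL-12 family subunit, was at least 25.3-fold higher, and Edn1, the vasoconstrictor endothelin, rose by 4.66 ± 0.26. Il1rn, the IL-1 receptor antagonist that also sits in the IL-4 list, rose by 6.14 ± 0.69; its other probe did not pass the threshold.

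Among chemokines 9 of 21 measured genes were higher and 2 lower (median 1.78, against -0.25 over all genes). Of all genes 5.64% rose and 11.5% fell, so that the count of falls was near the share of all genes. Cxcl9, an IFNγ-induced T cell attractant, showed the largest fitted difference among genes detected in both groups: its signals were 14.99, 14.78 and 14.99 in LPS+IFNγ, 6.41, 5.70 and 4.49 in IL-4 and 4.84, 5.67 and 4.61 in unstimulated cells, a rise of 9.38 ± 0.48 (adjusted p = 4.35e-05). Cxcl10 had 14.31, 11.92 and 14.42 in LPS+IFNγ, 5.71, 5.11 and 4.47 in IL-4 and 6.06, 7.87 and 5.82 in unstimulated cells and rose by 8.46 ± 0.78; the weak array was the lowest of the LPS+IFNγ arrays, and without it the difference was 9.36. The neutrophil attractant Cxcl2 was at least 40.6-fold higher. Ccl3 rose by 3.59 ± 0.62. Ccl5 had 14.21, 14.72 and 14.50 in LPS+IFNγ and 13.08, 8.20 and 10.16 in IL-4 cells, with IL-4 replicate 1 well above the others. Its difference was 3.998 ± 1.01 (adjusted p = 0.0321); the call was lost in 7 of 9 fits with 1 array left out, that is, in all but the fits without IL-4 replicate 1 and LPS+IFNγ replicate 2 (adjusted p up to 0.112), and the difference was 5.31 without IL-4 replicate 1. The 2 chemokines that fell were Ccl24, an eosinophil attractant of alternative activation (-4.45 ± 0.70), and Ccl6 (-2.37 ± 0.51), whose call was lost without IL-4 replicate 2 or 3 (adjusted p up to 0.0733).

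Interferon-induced genes gave rises and no falls. Of 12 measured IFNγ-induced GTPases, which attack vacuoles that hold microbes, 10 rose and 0 fell, with a median of 4.16. Over all genes 5.64% rose and 11.5% fell. Gbp2 had signals of 15.03, 14.93 and 15.25 in LPS+IFNγ, 10.53, 6.83 and 6.82 in IL-4 and 8.61, 7.84 and 8.58 in unstimulated cells and rose by 7.01 ± 0.89 (adjusted p = 0.00166). IL-4 replicate 1 was the high IL-4 array, and without it the rise was 8.27. Gbp5 rose by 6.38 ± 0.54 and Tgtp1 by 4.39 ± 0.28, and Gbp2b was at least 92.2-fold higher; members of these families are close in sequence, and a probe may also bind a relative. Of 28 measured antiviral genes 13 rose and 0 fell (median 2.30). Their count was 10 with the slide as a block, 22 without the weak array and 22 without IL-4 replicate 1, whose mean over these genes lay above the other IL-4 and all unstimulated arrays. The shares of all genes that rose in those fits were 4.85%, 12.9% and 5.47%. Oasl1, an oligoadenylate synthetase-like protein, rose by 5.62 ± 0.88, the exonuclease Isg20 by 3.83 ± 0.41, the antibody receptor and ubiquitin ligase Trim21 by 2.45 ± 0.34 and the dNTP hydrolase Samhd1 by 2.52 ± 0.38. Median centring left 3 of the GTPases and 0 of the antiviral genes past the threshold, with list medians 3.85 and 2.10 above the median of all genes.

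Among 24 measured STAT, IRF and SOCS regulators 5 rose and 2 fell, beside 5.64% and 11.5% of all genes. Without the weak array 10 rose and 2 fell, where 12.9% of all genes rose and 19.4% fell. With the slide as a block or without IL-4 replicate 1, 1 fell, beside 9.49% and 8.97% of all genes. Batf2, a partner of IRF1 in activated macrophages, rose by 5.13 ± 0.43. Irf1, the factor that carries much of the IFNγ response, had signals of 13.89, 14.17 and 13.99 in LPS+IFNγ, 12.21, 11.19 and 10.73 in IL-4 and 11.04, 10.52 and 10.77 in unstimulated cells and rose by 2.64 ± 0.37 (adjusted p = 0.00252), with 3 of its 4 other probes not past the threshold. Socs3, a feedback inhibitor of cytokine signalling, rose by 5.53 ± 1.06. Irf8, a lineage factor of microglia, rose by 1.41 ± 0.32, and Tyk2, a Janus kinase, by 1.14 ± 0.27; Irf8 lost its call without IL-4 replicate 1, 2 or 3 or LPS+IFNγ replicate 3 (adjusted p up to 0.067) and Tyk2 without IL-4 replicate 1, 2 or 3 or LPS+IFNγ replicate 1 or 3 (adjusted p up to 0.103), and both turned negative under median centring. Batf3 fell (-1.26 ± 0.32), and so did Socs2 (at least 3.04-fold lower), a call that was lost without IL-4 replicate 1 or 3 or LPS+IFNγ replicate 1 or 3 or unstimulated replicate 1 (adjusted p up to 0.102). Tyk2 and Batf3 are named after their values were seen. Several nodes of IL-4 signalling did not pass: Stat6, the factor itself, differed by -0.92 ± 0.65 (adjusted p = 0.384) and by -0.03 without the weak array. Il4ra, the receptor chain, differed by 1.23 ± 0.46 (adjusted p = 0.117), Irf4, a STAT6-induced factor, by -0.46 ± 0.32 (adjusted p = 0.377), and Socs1 by 0.82 ± 0.62 (adjusted p = 0.412), or 1.69 without the weak array (adjusted p = 0.00375). Of 9 receptors for IL-4, interferons and IL-10 the only call was Il6ra, named after its value was seen, which fell (-2.45 ± 0.69). That count is near the 11.5% of all genes that fell. Without the weak array 2 of these receptors rose and 2 fell, beside 12.9% and 19.4% of all genes in that fit. With the slide as a block none passed. The Il6ra call was lost without IL-4 replicate 1, 2 or 3 or LPS+IFNγ replicate 3 or unstimulated replicate 3 (adjusted p up to 0.141). Batf3 lost its call in 6 of 9 fits with 1 array left out, that is, in all but the fits without IL-4 replicate 1, LPS+IFNγ replicate 2 and LPS+IFNγ replicate 3 (adjusted p up to 0.133).

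Antigen presentation genes gave more rises than falls in both pathways, though most members did not pass. Of 20 measured MHC class I processing genes 8 rose and 0 fell (median 1.12), beside 5.64% and 11.5% of all genes. Without the weak array 13 rose, beside 12.9% of all genes, and with the slide as a block 5, beside 4.85%. The rises included the peptide transporter subunits Tap1 (3.03 ± 0.59) and Tap2 (2.64 ± 0.23), the tapasin-like Tapbpl (2.07 ± 0.35) and Nlrc5, the class I transactivator (3.70 ± 0.53). Tap1 lost its call without IL-4 replicate 3 (adjusted p of 0.052). Of 13 MHC class II genes 5 rose and 1 fell, beside 5.64% and 11.5% of all genes. The class II rises numbered 8 without the weak array, 3 without IL-4 replicate 1 and 3 with the slide as a block. The shares of all genes that rose in those fits were 12.9%, 5.47% and 4.85%. H2-Ab1, a class II beta chain that presents peptides to helper T cells, had signals of 12.30, 12.19 and 12.58 in LPS+IFNγ, 5.63, 7.01 and 5.23 in IL-4 and 6.78, 6.09 and 7.08 in unstimulated cells, a rise of 6.40 ± 0.46 (adjusted p = 1.29e-04). H2-Eb1 rose by 5.82 ± 0.39 and H2-Aa by 5.04 ± 0.41. The other calls were H2-Oa (1.93 ± 0.50) and H2-DMb1 (0.89 ± 0.24), which edit the peptide load and were named after their values were seen, and the lysosomal thiol reductase Ifi30, which fell (-1.98 ± 0.50). Ifi30 lost its call without IL-4 replicate 1, 2 or 3 or unstimulated replicate 1 (adjusted p up to 0.125), H2-Oa in 6 of 9 fits with 1 array left out, that is, in all but the fits without LPS+IFNγ replicate 2, unstimulated replicate 2 and unstimulated replicate 3 (adjusted p up to 0.12) and H2-DMb1 in 7 of 9 fits with 1 array left out, that is, in all but the fits without LPS+IFNγ replicate 2 and unstimulated replicate 2 (adjusted p up to 0.146), and H2-DMb1 was negative under median centring.

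Of 17 costimulatory and checkpoint molecules 7 rose and 4 fell, beside 5.64% and 11.5% of all genes. With the slide as a block 1 fell, beside 9.49% of all genes. Cd40, the receptor for T cell help, had signals of 13.53, 13.65 and 13.75 in LPS+IFNγ and 9.80, 7.09 and 6.90 in IL-4 cells and rose by 5.72 ± 0.68 (adjusted p = 0.00128). Cd86, which engages CD28, rose by 2.80 ± 0.51, Slamf7 by 6.06 ± 0.41, and Cd274, the checkpoint ligand PD-L1, by 2.57 ± 0.37, while Tnfsf9 was at least 3.46-fold higher. Falls were Cd300a (-2.53 ± 0.46), an inhibitory receptor, and 3 genes named after their values were seen: Pdcd1lg2, the PD-L2 ligand induced by IL-4 (at least 2.23-fold lower), Cd200r1, the inhibitory receptor for CD200, and Vsir (-1.51 ± 0.43). The calls of Pdcd1lg2, Cd200r1 and Vsir were each lost in at least 6 of 9 fits with 1 array left out, with adjusted p up to 0.0807, 0.121 and 0.177. Cd200r1 had no usable bound. With median centring 0 class I, 1 class II and 0 costimulatory genes passed as higher, and all these lists kept medians above that of all genes.

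Innate sensing and NF-kB signalling genes gave more rises than falls: of 34 measured 18 rose and 1 fell (median 1.35), beside 5.64% and 11.5% of all genes. Without the weak array 22 rose and 4 fell, beside 12.9% and 19.4% of all genes. Under median centring 2 rose, beside 30 of all 9391 genes. Irak3, the inactive kinase that restrains TLR signalling, rose by 3.77 ± 0.24 (adjusted p = 7.59e-05), and Nfkbiz, a nuclear IkB protein needed for Il6, by 5.33 ± 0.44 (adjusted p = 2.24e-04). Traf1, a TNF receptor adaptor, had signals of 11.67, 12.06 and 11.55 in LPS+IFNγ, 6.89, 4.33 and 4.77 in IL-4 and 5.06, 4.51 and 4.94 in unstimulated cells and rose by 6.43 ± 0.59. Irak2 rose by 2.98 ± 0.26. Tlr8 was the gene that fell (-2.78 ± 0.69), named after its value was seen; its call was lost in 6 of 9 fits with 1 array left out, that is, in all but the fits without LPS+IFNγ replicate 1, LPS+IFNγ replicate 2 and unstimulated replicate 2 (adjusted p up to 0.104). Of 22 inflammasome and cell death genes 6 rose and 1 fell, beside 5.64% and 11.5% of all genes. The death receptor Fas rose by 4.53 ± 0.63, Mlkl, the executor of necroptosis, by 4.34 ± 0.62, and Casp4, the sensor of cytosolic LPS, by 2.96 ± 0.44. Nlrp3 was at least 4.01-fold higher. Bcl2l11, which encodes the death-promoting protein BIM, fell (-4.43 ± 0.78).

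**Figure D3:**
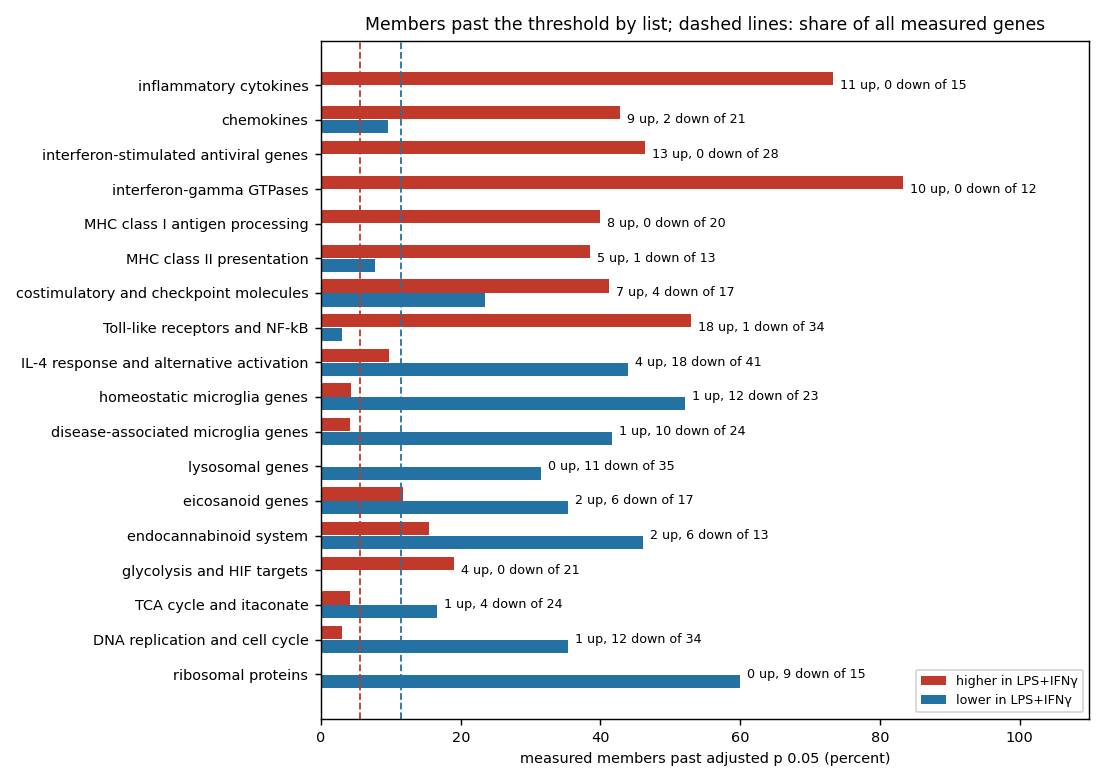
Share of the measured members of each list that were higher (red) or lower (blue) in LPS+IFNγ than in IL-4 microglia at adjusted p 0.05, with counts beside the bars. Dashed lines mark the shares over all measured genes, 5.64% higher and 11.5% lower; the cytokine, GTPase and Toll-like receptor lists stand right of the red line and the microglial, ribosomal and lysosomal lists right of the blue line.

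Among genes of alternative activation, more fell than rose in LPS+IFNγ relative to IL-4 microglia. Of 41 measured genes of this list 18 fell and 4 rose (median -1.13, against -0.25 over all genes), beside 11.5% and 5.64% of all genes. Without the weak array the counts were 20 and 4, beside 19.4% and 12.9% of all genes. With undetected values raised they were 11 and 4, where 559 of all 9391 genes fell and 665 rose. Retnla had signals of 4.71, 4.43 and 4.57 in LPS+IFNγ, 11.86, 13.16 and 11.28 in IL-4 and 4.36, 4.47 and 4.61 in unstimulated cells. It was detected on no LPS+IFNγ array, which puts it at least 79.7-fold lower, or 159-fold without the weak array (adjusted p = 5.96e-05). Mrc1, the mannose receptor, had 5.73, 4.58 and 4.88 in LPS+IFNγ, 14.12, 12.69 and 13.07 in IL-4 and 12.65, 10.62 and 11.42 in unstimulated cells, a difference of -8.23 ± 0.58 (adjusted p = 1.11e-04). The LPS+IFNγ arrays lay far below the unstimulated arrays as well as the IL-4 arrays, a contrast with Retnla, whose unstimulated level was as low as that of LPS+IFNγ cells.

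The lectin Mgl2 was at least 8.8-fold lower and the ribonuclease Rnase2a at least 20.3-fold lower. Egr2, a transcription factor of the IL-4 response, fell by 3.27 ± 0.39 (adjusted p = 0.00129). Pparg, the lipid-sensing nuclear receptor, was at least 11.2-fold lower, and its other probe did not pass. Weaker support stood behind Chil3, a chitinase-like marker (at least 1.38-fold lower, adjusted p = 0.0359), and Myc (no usable bound, adjusted p = 0.0398). Chil3 lost its call in 6 of 9 fits with 1 array left out, that is, in all but the fits without IL-4 replicate 1, IL-4 replicate 2 and LPS+IFNγ replicate 2 (adjusted p up to 0.0817) and Myc in 7 of 9 fits with 1 array left out, that is, in all but the fits without IL-4 replicate 1 and LPS+IFNγ replicate 2 (adjusted p up to 0.161). Clec7a, the beta-glucan receptor, differed by -1.61 ± 0.61 (adjusted p = 0.121), and by -2.31 without the weak array (adjusted p = 0.00257). The 4 genes of the list that rose were Il1rn, Slc7a2, the oxysterol enzyme Ch25h (5.80 ± 0.88) and the gelatinase Mmp9 (1.82 ± 0.24), each also known to be induced by LPS. Flt1, a VEGF receptor, fell (-4.13 ± 0.77). Ccl17 and Ccl22 were too dim to be measured, and Il12b and Cd38 were not analysed here.

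**Figure D4:**
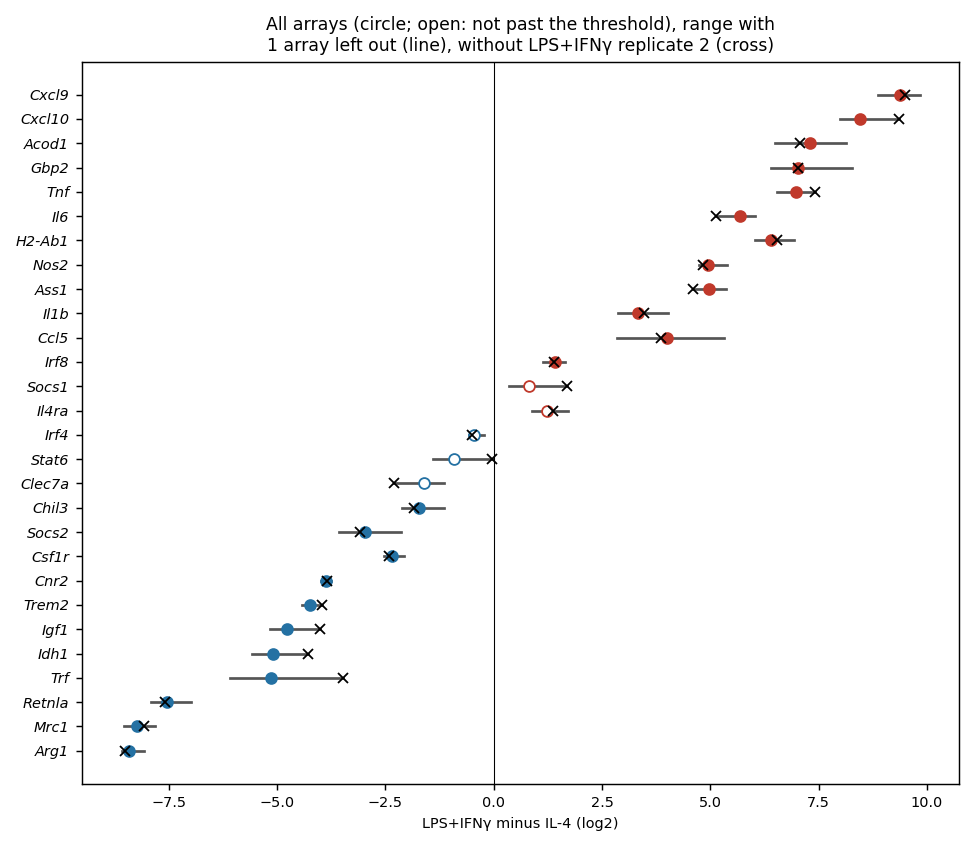
Log2 difference between LPS+IFNγ and IL-4 microglia for 28 genes with all arrays (circle, open where not past the threshold), its range when each array was left out in turn (line) and its value without LPS+IFNγ replicate 2 (cross). Genes that an entire group did not detect, such as Arg1 and Retnla, are drawn at fitted differences, in whose place the text gives bounds. Cxcl9 ranged from 8.87 to 9.83 and Mrc1 from -8.52 to -7.81, while Trf ranged from -6.09 to -3.47 and Ccl5 from 2.85 to 5.31.

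Among genes of resting microglia, more fell than rose in LPS+IFNγ cells. Of 23 measured homeostatic genes 12 fell and 1 rose (median -1.54), beside 11.5% and 5.64% of all genes. The count of rises was near that share. Without the weak array 15 fell, beside 19.4% of all genes, and without IL-4 replicate 1 none rose. Trem2, a lipid-sensing receptor of phagocytosis, had signals of 9.28, 8.44 and 9.32 in LPS+IFNγ, 12.90, 13.37 and 13.50 in IL-4 and 13.03, 13.64 and 13.30 in unstimulated cells, a difference of -4.24 ± 0.32 (adjusted p = 1.52e-04). IL-4 and unstimulated arrays overlapped, and all LPS+IFNγ arrays lay below them. Gas6, the bridging ligand for MERTK and AXL, differed by -5.07 ± 0.31, Fcrls by -3.08 ± 0.31, Csf1r, the survival receptor, by -2.35 ± 0.30, and the fractalkine receptor Cx3cr1 by -3.97 ± 0.79. Cx3cr1 lost its call without IL-4 replicate 3 (adjusted p of 0.0552). The transcription factor Mef2c fell (-2.99 ± 0.39). Tyrobp, the TREM2 adaptor, fell (-1.25 ± 0.27), with its call lost without IL-4 replicate 2 or 3 (adjusted p up to 0.0698). Mertk, an engulfment receptor, was the exception (1.40 ± 0.33); its call was lost without IL-4 replicate 1 or 3 or LPS+IFNγ replicate 1 or 3 (adjusted p up to 0.0662), and its sign turned under median centring. In whole cultures, fewer cells of a type and less RNA per cell cannot be told apart.

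Of 24 disease-associated microglia genes 10 fell and 1 rose (median -1.15), beside 11.5% and 5.64% of all genes. The count of rises was near that share. Without the weak array 2 rose, beside 12.9% of all genes, and none rose with the slide as a block or without IL-4 replicate 1. Igf1, a trophic factor, had 9.41, 7.20 and 9.56 in LPS+IFNγ, 13.25, 13.67 and 13.55 in IL-4 and 12.07, 13.25 and 12.30 in unstimulated cells and differed by -4.77 ± 0.61 (adjusted p = 0.00178), or -4.01 without the weak array, its lowest. Timp2, an inhibitor of metalloproteinases, differed by -4.66 ± 0.28 and Ank by -4.76 ± 0.38. Cd52, named after its value was seen, rose by 1.03 ± 0.29, but lost its call in 8 of 9 fits with 1 array left out, that is, in all but the fit without LPS+IFNγ replicate 2 (adjusted p up to 0.156), and its other probe did not pass. With undetected values raised, 11 homeostatic and 8 disease-associated genes fell, where 559 of all 9391 genes fell.

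Uptake receptors gave calls in both directions. Of 26 measured 5 rose and 4 fell, around a median of -0.06 and beside 5.64% and 11.5% of all genes. Without the weak array 7 rose and 7 fell, beside 12.9% and 19.4% of all genes in that fit. Timd4, a receptor for phosphatidylserine, was at least 39.9-fold higher. The mycobacterial lipid receptor Clec4e rose by 5.38 ± 0.53, the scavenger receptor Marco by 5.03 ± 0.55 and the activating Fc receptor Fcgr4 by 1.86 ± 0.43, the last with its call lost without IL-4 replicate 2 or 3 or LPS+IFNγ replicate 1 or 3 (adjusted p up to 0.0887). Beside Mrc1, the integrin chain Itgb5 (-4.49 ± 0.82), Stab1 (-1.63 ± 0.32) and Lrp1 (-2.21 ± 0.52) fell, Lrp1 losing its call without IL-4 replicate 2 or 3 or LPS+IFNγ replicate 3 (adjusted p up to 0.102). Of 14 complement genes Serping1, the C1 inhibitor, was the call, with a rise of 4.53 ± 0.21 (adjusted p = 2.87e-05), a count near the 5.64% of all genes. Without the weak array 3 complement genes rose and 1 fell, beside 12.9% and 19.4% of all genes in that fit. Without IL-4 replicate 1 the rises were 2, beside 5.47% of all genes. Lysosomal genes were lower or not past the threshold: 11 of 35 fell and 0 rose (median -0.94), beside 11.5% and 5.64% of all genes. Without the weak array 16 fell and 1 rose, beside 19.4% and 12.9% of all genes. The hexosaminidase subunit Hexa differed by -2.88 ± 0.24, the mannosidase Man2b1 by -2.27 ± 0.28, the cathepsin Ctsf by -2.70 ± 0.37 and the glucuronidase Gusb by -2.20 ± 0.31. With median centring 6 lysosomal genes fell, where 843 of all 9391 genes fell.

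Ptgs2 and Ptges, of the route to prostaglandin E2, rose, and Hpgd, which breaks prostaglandins down, was lower. Ptgs2, the inducible cyclooxygenase, had signals of 7.65, 10.26 and 8.37 in LPS+IFNγ, 4.77, 4.79 and 4.72 in IL-4 and 4.61, 4.37 and 4.41 in unstimulated cells and rose (adjusted p = 0.00266). The weak array was its highest, and without it the log2 difference was 3.36. Ptges, the synthase of prostaglandin E2, rose by 6.11 ± 0.38 (adjusted p = 6.93e-05). The other prostaglandin E synthases, Ptges2 (-0.11 ± 0.53, adjusted p = 0.907) and Ptges3 (1.09 ± 0.48, adjusted p = 0.18), did not pass; both are named after their values were seen. Hpgd had 4.45, 4.29 and 4.27 in LPS+IFNγ, 10.66, 11.73 and 11.19 in IL-4 and 11.99, 12.56 and 11.68 in unstimulated cells and was at least 42.5-fold lower (adjusted p = 3.09e-05). The lysosomal phospholipase Pla2g15 differed by -3.52 ± 0.23, and Ltc4s, which makes leukotriene C4, was at least 2.41-fold lower. In all 2 of 17 measured eicosanoid genes rose and 6 fell, beside 5.64% and 11.5% of all genes.

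Cnr2, which encodes the CB2 receptor that these mice carry intact, was lower. Its signals were 4.76, 4.41 and 4.91 in LPS+IFNγ, 8.62, 8.36 and 8.70 in IL-4 and 8.32, 7.78 and 8.30 in unstimulated cells. No LPS+IFNγ array detected it and every IL-4 array did, so that it was at least 6.85-fold lower, or 13.6-fold without the weak array (adjusted p = 8.08e-05). Of 13 endocannabinoid genes 2 rose and 6 fell, beside 5.64% and 11.5% of all genes. Gpr18, a receptor for cannabinoid-like lipids, went the other way, with 12.12, 12.28 and 11.80 in LPS+IFNγ, 6.47, 5.19 and 5.45 in IL-4 and 7.77, 4.79 and 6.74 in unstimulated cells and a rise of 6.36 ± 0.69 (adjusted p = 8.41e-04). Daglb, a synthase of the endocannabinoid arachidonoylglycerol, differed by -5.29 ± 0.89, or -4.10 without the weak array. The hydrolases Abhd4 (-2.83 ± 0.61) and Abhd12 (-3.42 ± 0.95) and the lipid carrier Fabp5 (-2.65 ± 0.59) fell too. Abhd4 lost its call without IL-4 replicate 2 or 3 (adjusted p up to 0.0684), Fabp5 without IL-4 replicate 1, 2 or 3 (adjusted p up to 0.0653) and Abhd12 without IL-4 replicate 2 or 3 or unstimulated replicate 1, 2 or 3 (adjusted p up to 0.153).

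Receptors for chemoattractants and metabolites also parted, 4 of 19 measured rising and 4 falling, beside 5.64% and 11.5% of all genes. Fpr2, a receptor for formylated and amyloid peptides, had 13.99, 14.40 and 13.91 in LPS+IFNγ and 9.61, 6.54 and 6.88 in IL-4 cells and rose by 6.42 ± 0.80 (adjusted p = 0.0016). Ccrl2, which presents chemerin, rose by 4.56 ± 0.26, the medium-chain fatty acid receptor Gpr84 by 4.80 ± 0.63 and the niacin and butyrate receptor Hcar2 by 5.69 ± 0.82. Cxcr4 was at least 5.15-fold lower and the oxysterol receptor Gpr183 at least 15.4-fold lower, beside Cx3cr1. P2ry6, a receptor for UDP named after its value was seen, fell (-1.02 ± 0.28) but lost its call in 7 of 9 fits with 1 array left out, that is, in all but the fits without LPS+IFNγ replicate 2 and unstimulated replicate 2 (adjusted p up to 0.124).

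Around the Krebs cycle, the enzyme that diverts cis-aconitate to itaconate rose, and some isocitrate dehydrogenase genes fell. Acod1 had signals of 13.45, 14.25 and 13.44 in LPS+IFNγ, 8.11, 6.35 and 4.83 in IL-4 and 7.77, 7.55 and 7.17 in unstimulated cells, a rise of 7.29 ± 0.71 (adjusted p = 5.35e-04). Idh1 had 6.58, 4.24 and 6.93 in LPS+IFNγ and 10.90, 11.18 and 10.96 in IL-4 cells and differed by -5.09 ± 0.63, or -4.28 without the weak array. Idh2 was at least 5.08-fold lower, and Idh3g (-1.07 ± 0.20) and fumarase Fh1 (-1.21 ± 0.29) fell, Fh1 losing its call without IL-4 replicate 1, 2 or 3 or LPS+IFNγ replicate 1 (adjusted p up to 0.077). These were all the calls among 24 measured genes, 1 rising and 4 falling, beside 5.64% and 11.5% of all genes. Idh3a (-0.06 ± 0.30, adjusted p = 0.911) and Idh3b (-0.38 ± 0.20, adjusted p = 0.25), other isocitrate dehydrogenase subunits named after their values were seen, did not pass. Of 21 glycolytic and HIF target genes 4 rose and 0 fell (median 0.87), beside the same shares of all genes. Without the weak array 10 rose, beside 12.9% of all genes. The 4 rises were the glucose transporter Slc2a1 (2.13 ± 0.35), Tpi1 (1.76 ± 0.34), Pgk1 (1.30 ± 0.28) and Hk3 (1.74 ± 0.40). Hk3 lost its call without IL-4 replicate 1 or 3 or LPS+IFNγ replicate 1 or 3 (adjusted p up to 0.0878) and Pgk1 without IL-4 replicate 3 (adjusted p of 0.053), and Pgk1 was negative under median centring.

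Respiratory chain genes gave few calls, Cycs (1.46 ± 0.32) and Ndufb8 (-0.82 ± 0.22) among 26 measured, beside 5.64% of all genes rising and 11.5% falling. Of 23 oxidative burst and antioxidant genes 5 rose and 1 fell, beside the same shares of all genes. Without the weak array 7 rose and 2 fell, where 12.9% of all genes rose and 19.4% fell. Sod2, the mitochondrial superoxide dismutase, rose by 3.04 ± 0.31 (adjusted p = 6.71e-04), the cystine transporter Slc7a11 by 3.24 ± 0.71, thioredoxin Txn1 by 1.97 ± 0.40, the NADPH oxidase regulator Rac2 by 2.22 ± 0.52 and Keap1 by 1.18 ± 0.32, which turned negative under median centring. Gpx4, which reduces lipid peroxides, fell (-1.64 ± 0.33). All but Sod2 were named after their values were seen, and the calls of Cycs, Ndufb8, Slc7a11, Rac2, Keap1 and Gpx4 were lost when some single array was left out, with adjusted p of at most 0.149. Of 25 cholesterol genes 5 fell, Dhcr7 (-2.22 ± 0.31), Sqle (-2.94 ± 0.69), Stard4 (-2.15 ± 0.46), Mvd (-1.77 ± 0.47) and Hsd17b7 (-1.23 ± 0.33), and Ch25h rose; 11.5% of all genes fell. The falls numbered 8 without the weak array, where 2 rose, 3 with the slide as a block and 1 without IL-4 replicate 1. The shares of all genes that fell in those fits were 19.4%, 9.49% and 8.97%. Apart from Dhcr7 and Ch25h each of these calls was lost in at least 3 of 9 fits with 1 array left out.

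Iron-handling genes moved in both directions. Lcn2, which withholds iron-loaded siderophores from bacteria, had 12.53, 12.12 and 11.34 in LPS+IFNγ, 6.63, 4.66 and 4.45 in IL-4 and 4.66, 4.29 and 5.09 in unstimulated cells and rose by 6.75 ± 0.58 (adjusted p = 2.80e-04). Hfe, the haemochromatosis protein, had 4.79, 4.21 and 5.79 in LPS+IFNγ and 10.92, 10.30 and 11.19 in IL-4 cells and differed by -5.87 ± 0.45 (adjusted p = 1.61e-04). Of 15 genes 3 rose and 5 fell, beside 5.64% and 11.5% of all genes. The others were the metal transporter Slc11a2 (1.44 ± 0.22, negative under median centring), ceruloplasmin Cp (2.09 ± 0.52), the transferrin receptor Tfrc (-1.69 ± 0.31), transferrin Trf (-5.13 ± 1.19), the ferritin cargo receptor Ncoa4 (-2.24 ± 0.62) and the reductase Steap3, which no usable bound describes. Trf lost its call without IL-4 replicate 2 or 3 (adjusted p up to 0.0856), and Cp, Steap3 and Ncoa4 each without IL-4 replicate 2 or 3 or LPS+IFNγ replicate 1 or 3 or more.

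Proliferation and translation genes fell or did not pass, with a single exception. Of 34 replication and cell cycle genes 12 fell and 1 rose (median -1.27), beside 11.5% and 5.64% of all genes. Without the weak array 20 fell, where 19.4% of all genes fell and 12.9% rose. With undetected values raised 3 fell, beside 559 of all 9391 genes. The centromeric histone Cenpa differed by -4.40 ± 0.25 (adjusted p = 6.18e-05), the helicase subunit Mcm2 by -2.50 ± 0.39 and the checkpoint kinase Bub1b by -2.26 ± 0.34. The rise was Ccnd2, a G1 cyclin (4.998 ± 0.76); without the weak array 3 rose. Of 15 ribosomal protein genes 9 fell and 0 rose (median -1.08), beside the same 11.5% and 5.64% of all genes. The falls were modest, such as -1.19 ± 0.20 for Rpl10a and -1.35 ± 0.25 for Rps15. Under median centring 0 ribosomal genes passed, though their median stayed 1.40 from that of all genes, at -2.47. Of 21 matrix, protease and growth factor genes 5 rose and 3 fell, beside 5.64% and 11.5% of all genes. The collagenase Mmp13 had 14.81, 15.03 and 14.69 in LPS+IFNγ, 8.64, 9.24 and 7.60 in IL-4 and 8.80, 8.06 and 7.74 in unstimulated cells and rose by 6.35 ± 0.44. The serpin Serpina3f rose by 6.52 ± 0.48, the urokinase receptor Plaur by 2.86 ± 0.41 and Mmp14 by 3.05 ± 0.77, while Pdgfa fell (-3.13 ± 0.49). Mmp14 lost its call without IL-4 replicate 2 or 3 or LPS+IFNγ replicate 1 or unstimulated replicate 3 (adjusted p up to 0.125).

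Several of the largest differences lay outside these groups. Cd69, an early activation antigen, had 13.01, 13.75 and 13.03 in LPS+IFNγ, 6.92, 5.77 and 4.46 in IL-4 and 7.67, 6.86 and 7.20 in unstimulated cells and rose by 7.55 ± 0.57 (adjusted p = 1.52e-04), though its other probe did not pass. Upp1, a uridine phosphorylase, had 11.96, 11.23 and 11.43 in LPS+IFNγ and 4.47, 4.55 and 4.43 in IL-4 cells and was at least 109.7-fold higher (adjusted p = 1.10e-05), and Wdr20rt was at least 29.4-fold higher. Among falls, the ribonuclease Rnase4 had 5.12, 4.66 and 4.55 in LPS+IFNγ, 12.66, 10.54 and 11.13 in IL-4 and 10.97, 9.70 and 11.45 in unstimulated cells, a difference of -6.67 ± 0.60 (adjusted p = 3.51e-04). Separation of the groups on every array was a condition for naming these genes. The organic anion transporter Slco2b1 was at least 51.1-fold lower. The sialyltransferase St6gal1 differed by -5.77 ± 0.71, the MAP kinase phosphatase Dusp4 by -5.45 ± 0.34, the MAX partner Mxd4 by -5.33 ± 0.47, Lrmp by -5.12 ± 0.48 and the lysosomal transporter Slc46a3 by -5.10 ± 0.51. Man2a2, a Golgi mannosidase, was at least 16.8-fold lower by its brightest probe, but its 3 other probes did not pass.

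**Figure D5:**
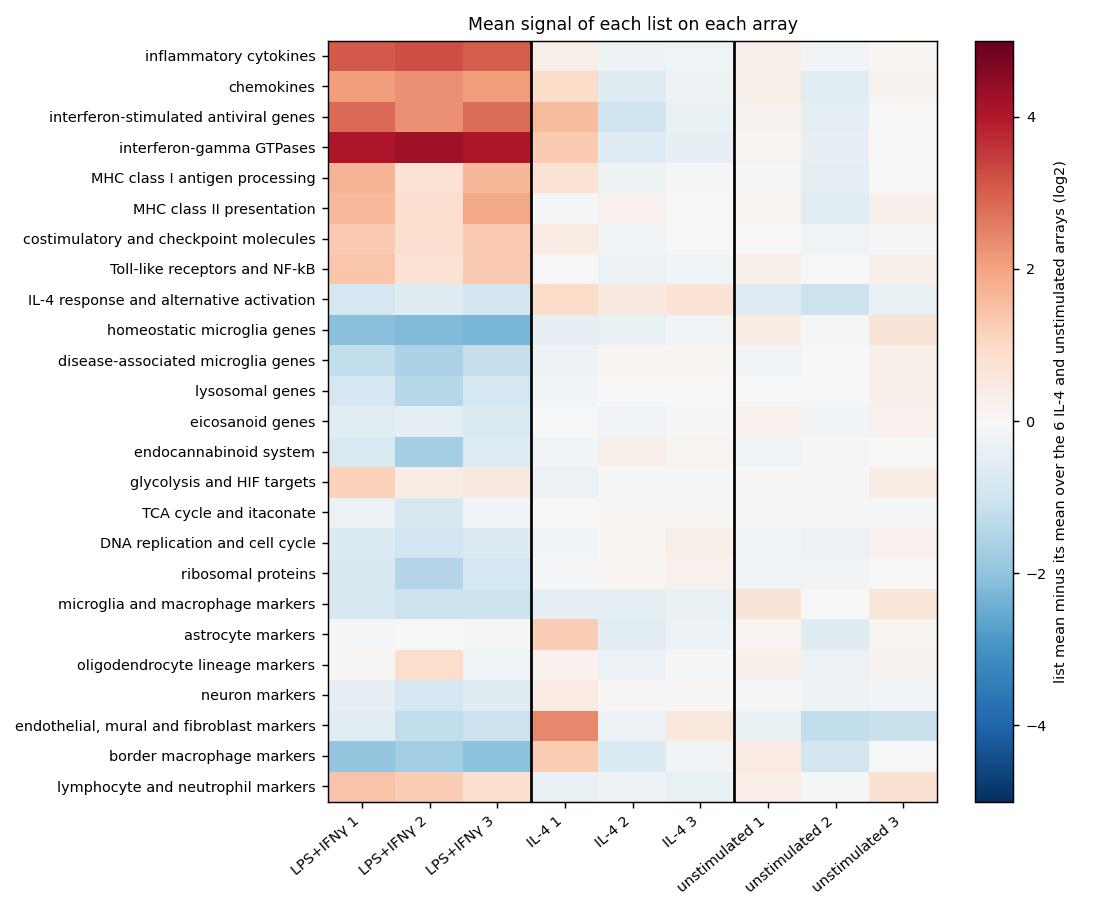
Mean log2 signal of each list on each array, less its mean over the 6 IL-4 and unstimulated arrays, with LPS+IFNγ arrays on the left. The LPS+IFNγ arrays are red for cytokine, interferon and GTPase lists and blue for homeostatic and lysosomal lists, and IL-4 replicate 1 is the IL-4 array with the highest antiviral, endothelial and border macrophage means.

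A panel of 30 measured polarization genes gave 15 rises and 10 falls, beside 5.64% and 11.5% of all genes. In the panel 5 genes did not pass: Irf4, Socs1, Il4ra, Clec7a and Stat6. Of the 178 called genes named here, 127 kept their call in all 9 fits that left out 1 array. The calls lost without a single array numbered 28, 0 and 29 for LPS+IFNγ replicates 1, 2 and 3, 24, 42 and 51 for the IL-4 replicates and 20, 13 and 22 for the unstimulated ones. Of the 178 genes, 75 had another measured probe, which missed the threshold for 32 genes and passed it in the opposite direction for 0. Only some of those 32 genes are marked above. Aif1, a microglial marker, and Cd14, the LPS co-receptor, rose by 1.48 ± 0.38 and 1.79 ± 0.38 among the microglia markers (4 rose without the weak array and 1 with the slide as a block), where Trem2, Csf1r, Cx3cr1 and Tyrobp fell; Aif1 lost its call without IL-4 replicate 2 or 3 or LPS+IFNγ replicate 1 or 3 or unstimulated replicate 3 (adjusted p up to 0.123).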

How the data were processed

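Total RNA was extracted with TRIzol, labelled with biotin and hybridised to Illumina mouse bead arrays, per the labels. The deposited table gives, per the file headers, a non-normalized intensity and a detection p-value for each of 45281 probes and each array. A second deposited table holds log2 values of the same arrays, as the authors processed them; Partek is named in the submitters' processing notes, and the normalization is not given in the sources used here. That table served as an alternative.

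Intensities were background-corrected (normexp with controls inferred from detection p-values, offset 16), quantile-normalized and log2-transformed with limma 3.58.1 in R 4.3.3. Probes with detection p under 0.05 on at least 3 of 9 arrays were kept: 16895 probes of 9391 genes, each gene represented by its brightest kept probe. Of all probes, 34885 carried 1 gene symbol in the platform annotation, 18 several and 10378 none. A linear model of 3 groups gave LPS+IFNγ minus IL-4, with adjustment over all kept probes at 0.05. Array number limits precision. Bounds raise undetected values to the lowest detected signal of their array. The slide, read from the array numbers in the labels, held LPS+IFNγ and IL-4 replicates 1 and 2, and another held replicate 3 of each with all unstimulated arrays.

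Named genes were the 10 largest rises and falls with groups that did not overlap, up to 6 further bounds each way, up to 4 lowest adjusted p-values of each list and the whole polarization panel; predicted genes were passed over. The members and lists were chosen with earlier results of these data known. The fit was tested on simulated data: of 50 probes each changed by 0.5, 1, 2 and 3 on the log2 scale, 9, 22, 46 and 47 were recovered, with 8 false calls among the 16895 probes tested. The simulated spread was that of the IL-4 arrays in every group, and the dimmest probes were not changed. No array as weak as LPS+IFNγ replicate 2 was simulated, so these rates do not describe recovery in the real comparison.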

Additional observations from a re-analysis of the deposited data

How the results depend on the processing

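The main counts were 530 genes higher and 1081 lower (811 and 1630 probes). Leaving out 1 array at a time gave 288 to 1213 genes higher and 518 to 1822 lower (447 to 2274 and 745 to 2723 probes). The high end of these counts was without LPS+IFNγ replicate 2 and the low end without IL-4 replicate 3. Medians over all genes were -0.35 (without LPS+IFNγ replicate 1) to -0.08 (without LPS+IFNγ replicate 2). Array weights gave 1484 genes higher and 2317 lower (2715 and 3555 probes). Only the 6 arrays of the comparison, with fewer arrays to estimate the spread, gave 310 genes higher and 548 lower (483 and 788 probes). Median centring gave 30 genes higher and 843 lower (37 and 1284 probes) around a median of -1.07, and raising undetected values gave 665 genes higher and 559 lower (1206 and 779 probes) around 0.30; the cause was not tested beyond leaving out the weak array. Without it, settings added after seeing the data gave 794 genes higher and 2248 lower (1407 and 3445 probes) with median centring, 1247 genes higher and 1715 lower (2321 and 2526 probes) with undetected values raised and 1076 genes higher and 1638 lower (2009 and 2470 probes) with the slide as a block. Without the detection filter the median over all genes was 0.0216. Counts under the deposited log2 table, no background correction, an offset of 50, a trended robust fit, the mean of probes, a filter on the 6 arrays and the slide block stayed within 1.5 times the main counts. The replicate block gave 463 genes higher and 909 lower (713 and 1348 probes); replicate numbers correlated at -0.11, -0.07 and 0.07 between same-numbered LPS+IFNγ and IL-4 arrays, so that the numbers were not taken to pair them.

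Ptges2, Ptges3, Idh3a and Idh3b were not compared across settings. Of the other 183 genes named with a value, no direction turned except under median centring, for Irf8 (-0.13), Mertk (-0.0582), Cd52 (-0.27), Pgk1 (-0.00948), Slc11a2 (-0.10), Tyk2 (-0.30), H2-DMb1 (-0.68) and Keap1 (-0.31), and with undetected values raised, for Stat6 (0.17), Irf4 (0.79), Myc (0.34), Cd200r1 (0.50), Steap3 (0.15), Rbfox3 (0.22) and Ddah2 (0.20). Median centring ended the call of 82 of them and gave 1 a new one; without LPS+IFNγ replicate 2 it ended 2. The slide as a block ended 20 calls and the replicate block 13. Without background correction, log2 differences of the called genes were a median 0.624 of the main ones, so that sizes, more than calls, depend on this step. Signal over background limits the falls: 209 genes called lower were detected on no LPS+IFNγ array.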
